A study of Gossypium barbadense with 4 samples.

Results

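Anther-preferred probe sets are those whose signal was high in the anthers of both cotton genotypes and low in the ovules of both. They were chosen among the 24029 probe sets of the Affymetrix Cotton Genome Array whose names lack the AFFX mark of controls, after signals under 50 were set to 50. A probe set was a member when the lower of its 2 anther signals was at least 200 and at least 4 times the higher of its 2 ovule signals. There were 34 members, which is 0.141% of all probe sets and 0.481% of the 7066 probe sets whose lower anther signal was at least 200. Because the signals themselves chose the members, the gap between anthers and ovules is given as a description and was not tested.

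RNA came from anthers and ovules of 2 Gossypium barbadense genotypes, collected from field-grown plants on the day of flowering (0 days post-anthesis, DPA). Pima S-1 is an obsolete cultivar with normal, non-semigametic reproduction, and 57-4 is its natural semigametic mutant, recovered from Pima S-1 as a doubled haploid. In semigamy the sperm enters the egg but the nuclei do not fuse. Each of the 4 arrays, 1 per tissue and genotype, held a pool of RNA from 3 biological replicates, each of 10 flowers, so no spread between replicates can be given and no difference was tested.

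An anther holds the developing pollen together with the tapetum, the layer of cells that feeds it and supplies parts of the pollen coat. At flowering the tapetum has broken down in most plants, and mature pollen carries stored transcripts for germination and tube growth, many of them for enzymes that remodel pectin, for the actin cytoskeleton and for calcium signalling. The ovule of cotton holds the embryo sac, and cells of its outer layer begin to elongate into fibres on the day of flowering. These are whole-tissue samples, so fewer cells of a type and less RNA per cell cannot be told apart.

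The members were of moderate brightness and narrow range. In 57-4 anthers their signals (MAS5 intensities, each array scaled to the same trimmed mean) ran from 241.7 through a median of 665.1 to 2774.2. In Pima S-1 anthers they ran from 272.7 through 683.6 to 2920.6. The ovule signals were lower by the rule, with a lowest value, median and highest value of 19.9, 140.4 and 616.8 in 57-4 and of 31.1, 105.65 and 539.1 in Pima S-1. Most members were thus still measured in ovules. In 29 of the 34 members both ovule signals were at least 50, in 4 members the Pima S-1 ovule signal alone was under 50, and in 1 member both were. By mean anther signal, 10 members lay at 200 to under 500, 12 at 500 to under 1000, 7 at 1000 to under 2000 and 5 at 2000 or more.

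**Figure D1:**
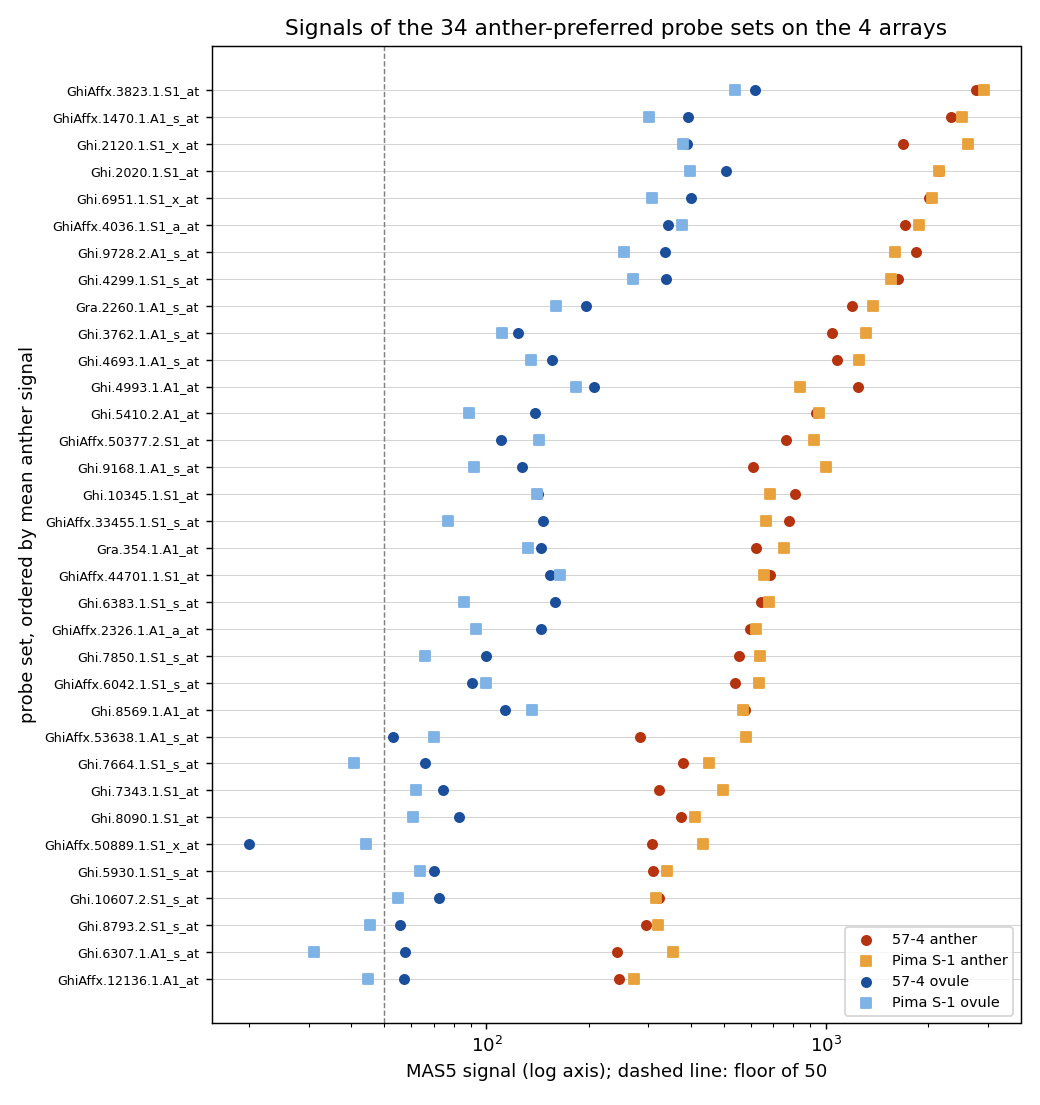
The MAS5 signal (log axis) of each of the 34 anther-preferred probe sets is plotted on the 4 arrays, with circles for 57-4, squares for Pima S-1, red and orange for anthers and dark and light blue for ovules. Probe sets are ordered by mean anther signal, the dashed line marks 50, and the anther points of the genotypes lie close together in most lines, within 1.2-fold in 24 of them.

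The preference for anthers was shallow. The ratio of the lower anther signal to the higher ovule signal ran from 4.00 to 8.39 with a median of 4.55, and 12 members reached 5-fold, 5 reached 6-fold and 1 reached 8-fold. The mirrored rule for ovules, with the tissues exchanged, chose 214 probe sets (0.891%), with a median ratio of 6.47 and a highest ratio of 128, and 80 of these reached 8-fold. At this stage the array therefore held fewer probe sets preferred in anthers than in ovules under the same thresholds, and those of anthers stood out less. The number of pollen transcripts that the array represents was not examined.

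The member with the highest ratio was Ghi.3762.1.A1_s_at, singled out after its values were seen. The anthers of 57-4 gave 1041.7 and those of Pima S-1 gave 1311.2, against 124.1 and 111.4 in the ovules. Anthers exceeded ovules 8.39-fold within 57-4 and 11.8-fold within Pima S-1. The 2 brightest members were GhiAffx.3823.1.S1_at and GhiAffx.1470.1.A1_s_at. GhiAffx.3823.1.S1_at had signals of 2774.2 and 2920.6 in 57-4 and Pima S-1 anthers and of 616.8 and 539.1 in the ovules. GhiAffx.1470.1.A1_s_at had 2333.6 and 2523.8 in anthers and 393.2 and 300.3 in ovules. Both were at nearly equal levels in the anthers of the genotypes, with log2 ratios of 57-4 to Pima S-1 of -0.07 and -0.11.

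Values on either side of the threshold were close to each other. Just inside it, GhiAffx.44701.1.S1_at had anther signals of 686.1 in 57-4 and 658.8 in Pima S-1 and ovule signals of 154.1 and 164.7, a ratio of 4.00. GhiAffx.53638.1.A1_s_at had a ratio of 4.03. Just outside it, Ghi.3929.1.S1_at had anther signals of 1357 and 1216.7 and ovule signals of 305.2 and 241.3, a ratio of 3.99. GarAffx.14011.1.S1_s_at, brighter than any member with anther signals of 4375.9 and 4910.2 and ovule signals of 1082.9 and 1101.2, had a ratio of 3.97. A further 360 probe sets lay at 2 to under 4-fold. No probe set past 4-fold was under 200 in anthers, since a floor of 50 and a 4-fold gap together already require a signal of 200.

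None of the 34 members could be given a product. Product names were available for probe sets in the study's own lists of genes that differed between the genotypes, and these lists give a text for 1659 probe sets, a product for 1439 and a product other than unknown or hypothetical for 991. They cover 13.7% of the probe sets with a lower anther signal of at least 200, 2.50% of those at 2 to under 4-fold and 0 of the members. The lists were drawn from these same arrays, so an absence from them says that a probe set was not listed as different between genotypes and says nothing of its function.

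The labelled tissue could be checked against marker families only in part. Words for pollen, anthers or tapetum occurred in no described product. Among the families known from pollen and tapetum, 4 described probe sets were found, and 1 of them, a pectinesterase (DT547464), was higher in both anthers than in both ovules. Another, a pectinesterase-3 precursor (CO127914), ran the other way, with ovule signals of 366.1 (57-4) and 529.9 (Pima S-1) against anther signals of 79.7 and 152.4. Pectinesterases trim the methyl groups from pectin in the cell wall. Of 24 described probe sets in ovule and fibre families, 3 exceeded both anthers by 2-fold or more in both ovules. By the same 2-fold limit 0 were higher in both anthers. At any excess, 3 were higher in both anthers and at least 200 there, and more were higher in both ovules. The latter included fiber proteins Fb25 (DW506688), Fb37 (DR463727) and Fb9 (CA992712). Their lower ovule signals were 1.98, 1.66 and 1.44 times the higher anther signals. A lipid-transfer protein precursor at least 2-fold higher in ovules (DT049951) had signals of 2582.1 and 2439.2 in 57-4 and Pima S-1 ovules against 572 and 163.8 in the anthers.

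The pectinesterase gives the only annotated link to a member. Its probe set, Ghi.9728.1.S1_at, and the member Ghi.9728.2.A1_s_at carry the same cluster number in their names, which marks 2 transcripts of 1 sequence cluster. The member was among the brightest, with anthers at 1840.6 (57-4) and 1596.5 (Pima S-1) and ovules at 335.4 and 254.6, a ratio of 4.76. The annotated probe set gave 1257 and 1459.9 with anther RNA and 505.2 and 827.1 with ovule RNA, a ratio of 1.52. The same direction was seen in both, but the annotation is that of the other transcript of the cluster and the member itself is not annotated. This pair was named after its values were seen.

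Other probe sets of the members' clusters offer a readout that the rule did not use, although they share the arrays and can share sequence. For 13 members 17 such partners were on the array, 10 for the same transcript in the other orientation and 7 for another transcript, and no 2 members shared a cluster. Of the 14 partners with a signal of at least 50 on some array, 12 had both anther signals above both ovule signals (85.7%), where 32.3% of all measured probe sets and 23.1% of all probe sets had. Their ratios were smaller than those of the members, from 0.84 to 3.48 with a median of 1.47, and 5 reached 2-fold. The 14 are not separate readouts, as Ghi.5930.2.S1_s_at, Ghi.5930.3.A1_s_at and Ghi.5930.4.S1_s_at all go with 1 member. Of the 14, 8 were for the same transcript in the other orientation. Some lay near the floor, such as Gra.2260.1.S1_at with anther signals of 58.4 (57-4) and 51.6 (Pima S-1).

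Named after their values were seen, the partners with the highest ratios were Gra.354.1.S1_at and Ghi.5930.2.S1_s_at. Gra.354.1.S1_at had anther signals of 203.9 in 57-4 and 252.6 in Pima S-1 and ovule signals of 58.6 and 26.4. Ghi.5930.2.S1_s_at had 336.5 and 326.4 in anthers against 96.6 and 60.7 in ovules. The 2 exceptions were Ghi.8793.2.A1_s_at and Ghi.9728.2.S1_s_at. Ghi.8793.2.A1_s_at had 35.7 and 159 in anthers against 56.4 and 59.3 in ovules, and Ghi.9728.2.S1_s_at had 98.6 and 51.9 against 54 and 20.9. In Ghi.9728.2.S1_s_at the overlap came from the Pima S-1 anther, which lay just under the 57-4 ovule.

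**Figure D2:**
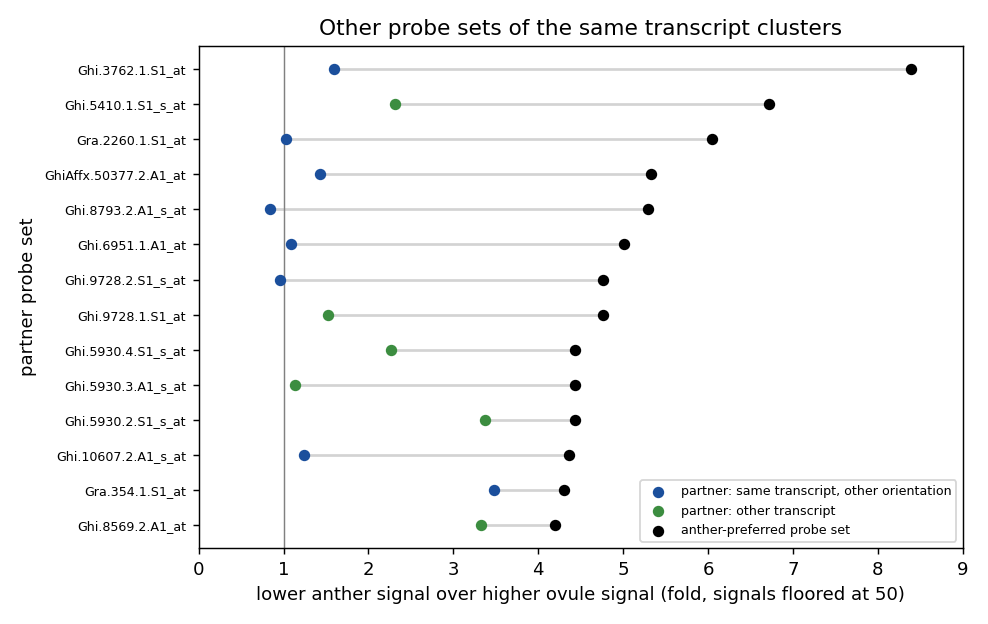
For each of the 14 measured partner probe sets (lines), the lower anther signal over the higher ovule signal (linear axis, signals floored at 50) is shown in blue where the partner represents the same transcript in the other orientation and in green where it represents another transcript, joined to the ratio of its anther-preferred member in black. All but 2 partners lie to the right of 1, and none reaches its member.

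By their names, the members were ordinary for bright probe sets. Names on this array give the species of the sequence and how specific the probes are. Ghi and GhiAffx, both for G. hirsutum, made up 21 (61.8%) and 11 (32.4%) of the members, against 54.6% and 35.1% of the probe sets with a lower anther signal of at least 200. The 2 others had the Gra prefix of G. raimondii (5.88% against 5.15%), and none began with GraAffx, the other prefix of that species (4.32%). Probe sets marked _s_at, whose probes match several transcripts, were 17 of 34 (50%), against 49.6%. Those marked _at, designed for 1 transcript, were 12 (35.3%, against 40.2%), and 3 were _x_at and 2 _a_at. Antisense-oriented names, marked A, were 14 (41.2%), against 29.6% of the bright and 44.3% of all probe sets. For the 17 members marked _s_at and the 3 marked _x_at a signal can come from more than 1 related gene.

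Between the genotypes, the anthers differed little over these probe sets. In 57-4 anthers 0 members reached a 2-fold higher signal and 1 a 2-fold lower signal, where 1.05% and 1.79% of all probe sets were, and 0.396% and 0.892% of those with a lower anther signal of at least 200. The count of members lies near these backgrounds and is no result about the members. The rule itself, which needs both anther signals to be high, limits how far the genotypes can part. The anther signals were within 1.1-fold of each other in 14 members, within 1.2-fold in 24 and within 1.5-fold in 30. Such closeness was common among bright probe sets too. Of these, 19.7% were lower and 18.4% higher in 57-4 by 1.2-fold or more, and 4.95% and 2.97% by 1.5-fold or more. Across the 34 members the log2 anther signals of the genotypes had a Pearson r of 0.956, against 0.975 over all probe sets. Both are descriptions across probe sets that share both arrays.

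The one member past 2-fold was GhiAffx.53638.1.A1_s_at. Its anther signals were 282.6 (57-4) and 580.1 (Pima S-1), and its ovule signals 53.2 and 70.2. The log2 ratio was -1.04, a 2.05-fold lower level in 57-4. This member lay just inside the 4-fold threshold, which it met through the 57-4 anther signal. The next lowest was Ghi.9168.1.A1_s_at, with anther signals of 609.7 (57-4) and 1002.2 (Pima S-1), ovule signals of 127.7 and 91.6, and a log2 ratio of -0.72.

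At the other end, the 2 members highest in 57-4 differed less. Ghi.4993.1.A1_at gave 1241.8 (57-4) and 837.4 (Pima S-1) with anthers, against 207.5 and 183.3 with ovules, a log2 ratio of 0.57. Ghi.10345.1.S1_at gave 814 and 685.5 with anthers, against 141.6 and 140.9 with ovules, a log2 ratio of 0.25. In all 4 of these probe sets both anther signals stood above both ovule signals by at least 4-fold, as the rule requires, so each was anther-preferred in either genotype.

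Most members were slightly lower in 57-4 anthers. The 57-4 signal was below that of Pima S-1 in 26 of 34 members (76.5%). It was lower in 49.7% of the probe sets with a lower anther signal of at least 200 and in 61.4% of the 360 at 2 to under 4-fold. Over all probe sets it was lower in 32.9% and higher in 33.2%, and in the other 8152 the 2 signals were equal after the floor. The median log2 ratio over the members was -0.13, with quartiles of -0.27 and -0.01 and a range of -1.04 to 0.57. Over the 7066 bright probe sets it was 0.00 with quartiles of -0.20 and 0.20, and over the 360 at 2 to under 4-fold it was -0.07. By mean anther signal, 9 of the 10 members under 500 and 9 of the 12 of at least 1000 were lower in 57-4. The share was smallest among the 12 members in between. With only probe sets designed for 1 transcript 8 of 12 were lower, and with a floor of 100 17 of 24 were. The rule used these same anther signals, so the lean is a description.

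The tails of the distribution showed the same lean. By 1.2-fold or more, 9 members were lower in 57-4 and 1 was higher, where 19.7% and 18.4% of the bright probe sets were. By 1.5-fold or more, 4 were lower and none higher, against 4.95% and 2.97%. With 1 array per genotype, none of these differences could be set against the variation between arrays.

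**Figure D3:**
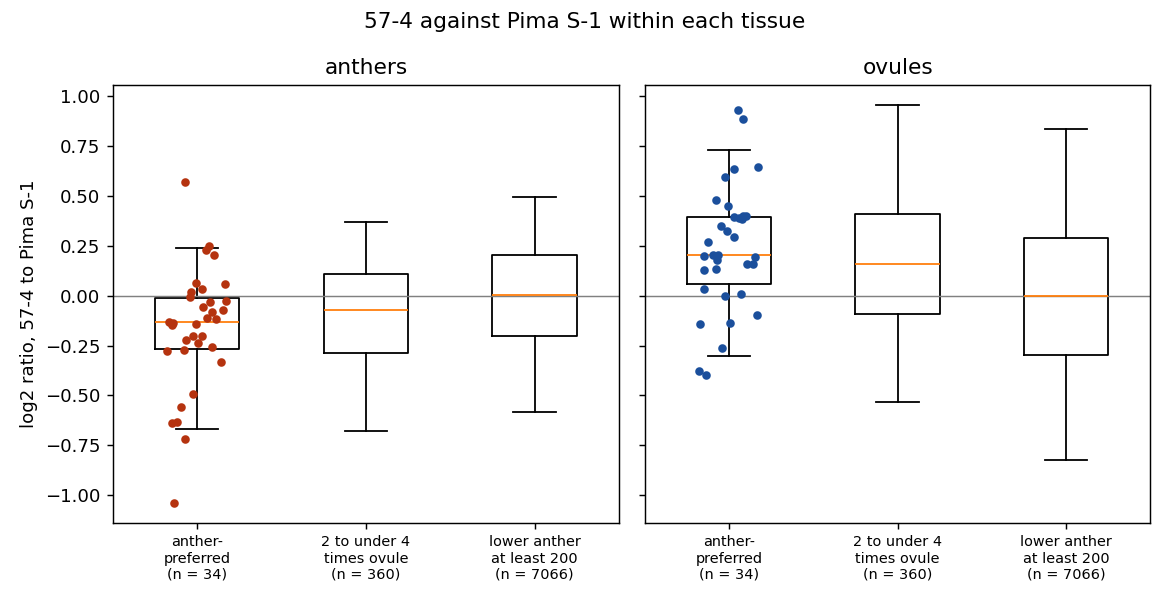
Log2 ratios of 57-4 to Pima S-1 are shown in anthers (left) and ovules (right) for the 34 anther-preferred probe sets (points), the 360 probe sets at 2 to under 4 times the higher ovule signal and the 7066 with a lower anther signal of at least 200. Boxes span the quartiles with the median as an orange line and whiskers the 5th to 95th percentile. The members' median lies at -0.13 in anthers and 0.20 in ovules, while that of the 7066 lies at 0.00 in both.

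Array quality and scaling differed between the genotypes in the same samples. Over 3 control transcripts, the 3′ signal exceeded the 5′ signal by 11.7 to 17.4 times on the 57-4 anther array and by 5.64 to 9.20 times on that of Pima S-1. In ovules the spans were 14.5 to 21.1 and 4.18 to 11.8. The part of this difference in the members' ratios was not tested. Hybridization controls, RNAs spiked into each hybridization, are read by 27 probe sets in 3 versions of 9. The version used for scaling was brighter on the 57-4 arrays by a median of 0.49 (log2) in anthers and 0.35 in ovules, and the other two by 0.47 and 0.57 in anthers and by 0.40 each in ovules. Scaling the arrays on the first of these versions lowered every anther ratio by about as much, so that the median of the bright probe sets became -0.49. The rule then chose 60 probe sets with a median of -0.57, and Ghi.10345.1.S1_at turned from 0.25 to -0.26 and GhiAffx.44701.1.S1_at from 0.06 to -0.45. Ghi.4993.1.A1_at was left at 0.06.

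In ovules the members leaned the other way. The 57-4 ovule signal was above that of Pima S-1 in 27 of 34 members (79.4%), below it in 6 and at the floor in both in 1. It was above in 50% of the bright probe sets and 66.7% of those at 2 to under 4-fold. Over all probe sets it was above in 34% and below in 27.1%, with 9346 equal after the floor. The members' median log2 ratio was 0.20, and 0.27 over the 29 members with both ovule signals at least 50. No member reached 2-fold in ovules, where 2.73% of all probe sets were at least that much higher in 57-4 and 2.53% lower (3.04% and 3.07% of the bright ones). The ovule genotypes are those of the deposited labels. In the study's list of ovule genes, all 1414 probe sets held here have the signal columns of the genotypes headed the other way round. The deposited labels were used throughout, which heading is right was not tested, and membership does not depend on it.

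With the deposited labels, the gap between anthers and ovules was narrower in 57-4. The ratio of anther to ovule signal had a median of 5.06 in 57-4 (4.05 to 8.39) and of 6.68 in Pima S-1 (4.00 to 11.8), and it was lower in 57-4 in 28 of 34 members (82.4%). It was lower in 49.3% of the bright probe sets and 72.8% of those at 2 to under 4-fold. Over all probe sets it was lower in 37.7% and higher in 33.8%, with 6867 equal after the floor. In 21 members the signal was both lower in anthers and higher in ovules of 57-4. For the 5 members with a Pima S-1 ovule signal under 50, the Pima S-1 ratio is a lower bound. If the ovule headings are exchanged the median ovule log2 ratio becomes -0.20 and the ratio of anther to ovule signal is lower in 57-4 in 15 of 34 members.

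The number of anther-preferred probe sets depended on which genotype chose them. From the 57-4 arrays alone the same thresholds chose 76 probe sets, and from the Pima S-1 arrays alone 222. Both lists held 45 probe sets, which is 59.2% of the first and 20.3% of the second, and 34 of the 45 also met the rule across all 4 arrays. Only 31 were chosen from 57-4 alone and 177 from Pima S-1 alone. These choices pair each anther array with an ovule array and so rest on the ovule labels. With the ovule headings exchanged, 57-4 chose 184 and Pima S-1 chose 150, of which 47 were shared, 137 came only from 57-4 and 103 only from Pima S-1. The direction of the genotype difference in such one-sided lists follows from how they were chosen, and their values are given as a description.

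**Figure D4:**
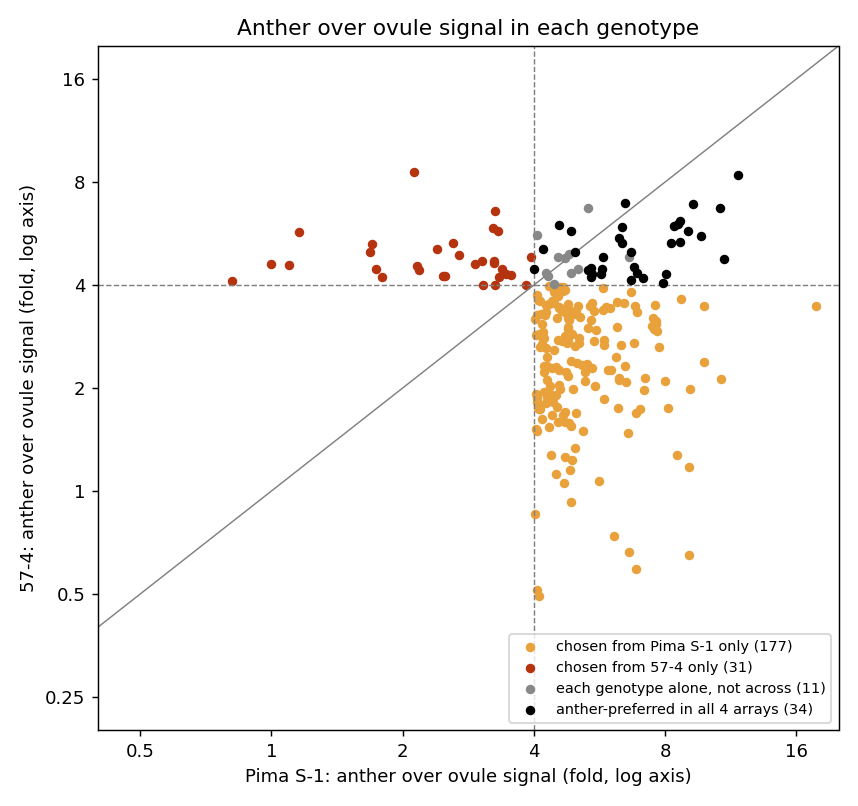
The ratio of anther to ovule signal in 57-4 is plotted against that in Pima S-1 (both log axes, signals floored at 50) for every probe set past the thresholds in at least 1 genotype. Dashed lines mark 4-fold and the diagonal marks equal ratios. The 34 members (black) and 11 others (grey) lie in the upper right, 177 probe sets chosen only from Pima S-1 (orange) lie below the horizontal line and 31 chosen only from 57-4 (red) lie left of the vertical line.

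Among the 177 chosen only from Pima S-1, 45 had a 57-4 anther signal under 200 and 132 stayed at 200 or more there. In 57-4 anthers 25 of the 177 were at least 2-fold lower, where 1.79% of all probe sets were. In 57-4 ovules 44 were at least 2-fold higher, where 2.73% of all probe sets were. Such an excess follows from the choice. The medians of the 177 (log2) were -0.34 for anthers and 0.55 for ovules. Of the 31 chosen only from 57-4, 6 exceeded Pima S-1 by 2-fold or more in anthers and 9 fell short of it by as much in ovules. Over all probe sets the shares were 1.05% and 2.53%. The medians of the 31 were 0.21 and -0.68.

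These one-sided lists held the annotated genes that the members lack. The lists describe 21 of the 177, of which 16 have a product, and 5 of the 31, all with a product. The genes named here were chosen after their values were seen. Among those chosen only from Pima S-1 were 3 transcription factors of families known from stress responses. For a dehydration responsive element binding protein (DT462887), of a family of transcription factors induced by drought and cold, anther over ovule signal was 4.08 in Pima S-1 and 0.51 in 57-4. For ethylene-responsive transcription factor 5 (DT047349) the ratios were 6.61 and 0.66. For DRE-binding factor 2 (DT455621) they were 8.54 and 1.28. In 57-4 the first and second were thus lower in anthers than in ovules and the third was slightly higher. All 3 were also chosen only from Pima S-1 with the ovule headings exchanged. Of the 67 described probe sets found by words for transcription factors, 2 were chosen from Pima S-1 and 1 from 57-4. The product of DT462887 holds none of those words. Of the 31 found by words for desiccation and stress, 2 and 0 were chosen, and of all 1659 described, 22 and 6. These counts are small and were not tested.

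In 3 other described probe sets chosen only from Pima S-1, under either ovule heading, the 57-4 anther was the lower and both ovules were low. A calmodulin (DW509133), which binds calcium, gave 97.9 (57-4) and 471.2 (Pima S-1) with anthers, against 56.4 and 67.2 with ovules. Phenylalanine ammonia lyase (DN781686), the entry enzyme of phenylpropanoid synthesis, gave 125.7 and 425.3 with anthers, against 81.2 and 87.5 with ovules. An alcohol acyltransferase (DT049113), of an enzyme class that forms esters, had 119.2 and 491.3, against 10.7 and 15.2. These 3 had log2 ratios in anthers of -2.27, -1.76 and -2.04. Of the 82 described probe sets for calcium and signalling, 2 were chosen from Pima S-1 and 2 from 57-4. Of all 1659 described probe sets, 22 and 6 were, with the 1 chosen from both counted in each. The 2 signalling probe sets from 57-4 included a mitogen-activated protein kinase (DT467259) with a log2 ratio in anthers of 0.32.

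In a second kind the anthers were alike and the ovules parted. ATP synthase subunit alpha (DW242450), of the enzyme that makes ATP, gave 3038.4 (57-4) and 3136 (Pima S-1) with anthers, but 1459.3 and 480.8 with ovules. A probable protein arginine N-methyltransferase 6 (DT466218) gave 382.5 and 388.1 with anthers but 285.6 and 78.1 with ovules. These were anther-preferred in Pima S-1 through the low ovule signal alone, and so depend on the ovule labels. Both were listed by the study as differing in ovules. The transcription factors, calmodulin, lyase and acyltransferase above were listed as differing in anthers. The kinds thus follow from the list that describes a probe set.

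From 57-4 alone came a bHLH transcription factor (CO093025), whose anther over ovule ratio was 5.28 in 57-4 and 1.71 in Pima S-1. Of the 5 described probe sets chosen from 57-4 alone it was the only one past 2-fold between the anthers, higher in 57-4 in both tissues, and the only one chosen only from 57-4 with the ovule headings exchanged. A FERONIA receptor-like kinase (DR455120) had anther signals of 388.6 (57-4) and 486.9 (Pima S-1) and ovule signals of 73.3 and 186.7. In Arabidopsis, FERONIA acts in the synergid cells of the ovule in the reception of the pollen tube. A fiddlehead-like protein (AY072823), related to an Arabidopsis enzyme of cuticle lipid synthesis, had anther signals of 578.9 and 725.2 and ovule signals of 117.8 and 269.1. For both of these the anthers of the genotypes were near each other, and the ovule array labelled 57-4 was the lowest of the 4. The study listed both for ovules and the bHLH factor for anthers. With the headings exchanged both would be chosen only from Pima S-1.

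The annotated probe set nearest to membership had a ratio of 3.74 and was chosen after its values were seen. It is Ghi.5042.1.A1_s_at (DT047910), listed as a hypothetical protein and, by its title, moderately similar to an Arabidopsis beta-xylosidase, a class of enzyme that releases xylose from cell wall polymers. Its anther signals were 740.4 (57-4) and 1305.3 (Pima S-1), against ovule signals of 153.2 and 197.8. It met the thresholds within each genotype but not across them, and its log2 ratio in anthers was -0.82. Of the 360 probe sets at 2 to under 4-fold, 9 were described and 4 of these had a product other than unknown or hypothetical.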

How the data were processed

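The deposited values are intensities, MAS5 signals that the authors made with Affymetrix software, 1 value per probe set and array, with all arrays brought to one trimmed mean (2% trimmed at each end). Of 24132 probe sets in the table, 103 controls served only for quality values and 1 scaling alternative. Signals under 50 were set to 50 before each ratio, so a fold against such a signal is a lower bound. There was 1 array per condition, so there is no test, standard deviation or p-value, and precision is limited by the number of arrays. Counts at 2-fold (log2 ratio of at least 1 or at most -1) are read against all probe sets and against bright ones.

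The members, word groups, marker families and naming rule were chosen with earlier results of these data known. By that rule, undescribed members are named as the 2 highest, 2 lowest and 2 brightest and those beside the threshold. Product names came from the study's lists, whose fold changes and p-values were not used. Whole-array annotation and probe sequences were not used here. Cluster partners were matched by the cluster number in the name. The calculation of the rule was checked on simulated signals, which does not measure how sure membership near the threshold is. Calculations used python 3.11.15, numpy 2.4.6, pandas 2.3.3 and matplotlib 3.10.9.

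Alternatives were other floors, quantile normalization, scaling on 9 hybridization controls, centred ratios, only probe sets designed for 1 transcript, other thresholds, a choice from 1 genotype and, added after seeing the data, exchanged ovule headings, for the lists from 1 genotype too.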

Additional observations from a re-analysis of the deposited data

Results flagged for a closer look

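Over the 34 anther-preferred probe sets, the genotype difference (57-4 minus Pima S-1, log2) in anthers minus that in ovules had a median of -0.42, against -0.26 over the 360 probe sets at 2 to under 4-fold, of which 72.8% were below 0, and 0.01 over the 7066 probe sets with a lower anther signal of at least 200. It is listed because the 2 tissues had medians of opposite sign under the same genotype contrast, -0.13 in anthers and 0.20 in ovules. The difference was not tested, since each tissue and genotype has 1 array, and 21 of the 34 members carried both signs. It becomes 0.07 if the genotype headings of the ovule arrays are exchanged, 0.07 over the 76 probe sets chosen from the 57-4 arrays alone (33 of them below 0) and -0.86 over the 222 from the Pima S-1 arrays alone. The anther-to-ovule ratio was lower in 57-4 in 28 of the 34 members, and in 7 of 12 with only probe sets designed for 1 transcript.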

How the results depend on the processing

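The 34 members became 60 with scaling on the hybridization controls, 12 with only probe sets designed for 1 transcript, 1 at 8-fold, 76 from the 57-4 arrays alone and 222 from the Pima S-1 arrays alone. They stayed 34 without a floor and were 24 with a floor of 100 or an anther minimum of 400, and 29 with quantile normalization, 27 of them among the 34. Of the 60, 32 were among the 34. The count at least 2-fold higher in 57-4 anthers was 0 in each setting but the choice from 57-4 alone, which gave 6. The count at least 2-fold lower was 1, and became 0 with a floor of 100, quantile normalization, only probe sets designed for 1 transcript, an anther minimum of 400, 8-fold and a log2 threshold of 1.5, 7 with scaling on the hybridization controls and 26 from Pima S-1 alone. The 1 probe set, GhiAffx.53638.1.A1_s_at, was no longer a member with a floor of 100, quantile normalization or scaling on the hybridization controls. Its log2 ratio there was -1.04, -1.01 and -1.54, and it is not among the 7. The median log2 ratio in anthers was below 0 in every setting tried. That sign says little where scaling lowered every anther ratio, where Pima S-1 alone chose or where 1 member was left. The median was -0.13 in the main setting. It moved to -0.57 with scaling on the hybridization controls (which moved the bright probe sets to -0.49), -0.33 for the 1 member at 8-fold and -0.28 from Pima S-1 alone. In the others it lay between -0.20 and -0.05. In ovules it was 0.20, and became 0.02 with scaling on the hybridization controls, -0.12 from 57-4 alone, 0.44 from Pima S-1 alone, 0.30 without a floor and -0.20 with exchanged headings. Of 35 alternative values for 7 named members, 9 moved by over 0.1. No paired analysis was possible because each group has 1 array. Signals near 50 limit the ovule ratios.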
